A study of Homo sapiens with 12 samples.

Results

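This comparison sets 3 libraries of HCT116 cells given actinomycin D against 3 libraries of HCT116 cells from which POLR1A had been degraded. The 6 libraries are 6 of the 12 in the series and were chosen by their titles alone, so no measured value decided which libraries were compared. Total RNA depleted of ribosomal RNA was sequenced, and HCT116 is a human colorectal carcinoma line. The actinomycin D group is wild-type cells exposed to 5 µg/mL of the drug for 6 h. The POLR1A-depleted group carries genotype POLR1A-AID1, in which a degron tag is fused to the endogenous protein. Doxycycline at 1 µg/mL, which switches on the plant F-box protein OsTIR1, was added 24 h before the auxin, and 500 µM of the auxin indole-3-acetic acid (IAA) was then left on for 8 h. Reference values come from 3 libraries of wild-type cells given DMSO for 8 h. A further 3 libraries, in which POLR2A was degraded with 1 µM of another auxin for 8 h, entered the same fit. They therefore bear on the filter on low counts, the scaling and each gene's average level as well as on the spread.

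RNA polymerase I (Pol I) transcribes the ribosomal RNA precursor in the nucleolus, and POLR1A is its largest, catalytic subunit. Actinomycin D inserts into DNA and stalls transcribing polymerases; ribosomal DNA is the most sensitive template, and at higher concentrations transcription by RNA polymerase II (Pol II) stops as well. When ribosome assembly fails, free ribosomal proteins bind MDM2, the ligase that destroys p53, and p53 then switches on its target genes. An mRNA that is no longer made disappears at the pace of its own decay, so labile and stable mRNAs part company once transcription is blocked.

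Genotype, drug, doxycycline, IAA and exposure time all differ between the 2 groups, and their effects cannot be told apart here. Libraries of untreated POLR1A-AID1 cells were not analysed here. The protocol text also gives a harvest at 6 h, while the titles of the degron libraries give 8 h. The replicates are dishes treated on 1 day and described as technical, so every p-value measures the spread between dishes. The 6 libraries held between 18796962 and 27393969 counts. Pearson correlations of log2 values between replicates were 0.982 to 0.984, against 0.935 to 0.942 between libraries of the 2 groups. The auxin removes protein, so POLR1A mRNA is no check of the labels: it was at 193, 203 and 177 normalised read counts (CPM, counts per unit of library size scaled by TMM) with actinomycin D, 147, 151 and 145 CPM with POLR1A depleted and 230 to 249 CPM in the DMSO controls. POLR2A mRNA was at 576, 620 and 558 CPM against 908, 910 and 945 CPM in the same 2 groups, with 468 to 561 CPM in the controls. Epithelial markers were present, with EPCAM at 264 to 281 CPM and 105 to 111 CPM, while 7 endothelial markers summed to at most 1.46 CPM in any of the 6 libraries.

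Of 23593 genes tested, 13259 (56.2%) were called in 1 direction or the other. Of these, 5757 (24.4% of genes tested) were higher with actinomycin D than with POLR1A depleted and 7502 (31.8%) were lower, at an adjusted p under 0.05 in edgeR's quasi-likelihood test. The lower side held the larger changes: 4492 genes (19.0%) were lower by at least 2-fold and 1713 (7.26%) higher by at least 2-fold, and 294 against 71 passed 16-fold. The 3 and 3 libraries did not overlap for 63.3% of the tested genes. With only the 6 libraries of the 2 groups fitted, 19364 genes were tested, of which 6371 were higher and 6670 lower. With the same fit, actinomycin D lay above the DMSO controls for 24.9% of genes and below for 28.5%, and POLR1A depletion for 20.6% and 18.6%. Both of those comparisons use the same 3 control libraries, so their values are given below side by side only. Counts of called list members below are to be read beside the shares of 24.4% higher and 31.8% lower.

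All directions are relative to the bulk of the transcriptome in each library. The median log2 fold change over all tested genes, actinomycin D minus POLR1A depleted, was -0.12 as reported, -0.05 with RLE size factors, -0.28 with library totals alone, 0.41 when mitochondrially encoded mRNAs were set equal and -1.07 when ribosomal protein mRNAs were set equal. The share of calls that were higher was 43.4%, 47.3%, 33.8%, 72.6% and 3.97% in that order. Fewer cells and less RNA per cell cannot be told apart in these bulk samples, and no outside RNA standard is named in the sources used here. The lists with the deepest falls kept a negative median under all of these scalings, as the plot of list medians under 5 scalings shows. Every list described below as split had a positive median with mitochondrial mRNAs set equal and a negative one with ribosomal protein mRNAs set equal. The same holds for the small MYC network and anti-apoptotic lists.

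**Figure D1:**
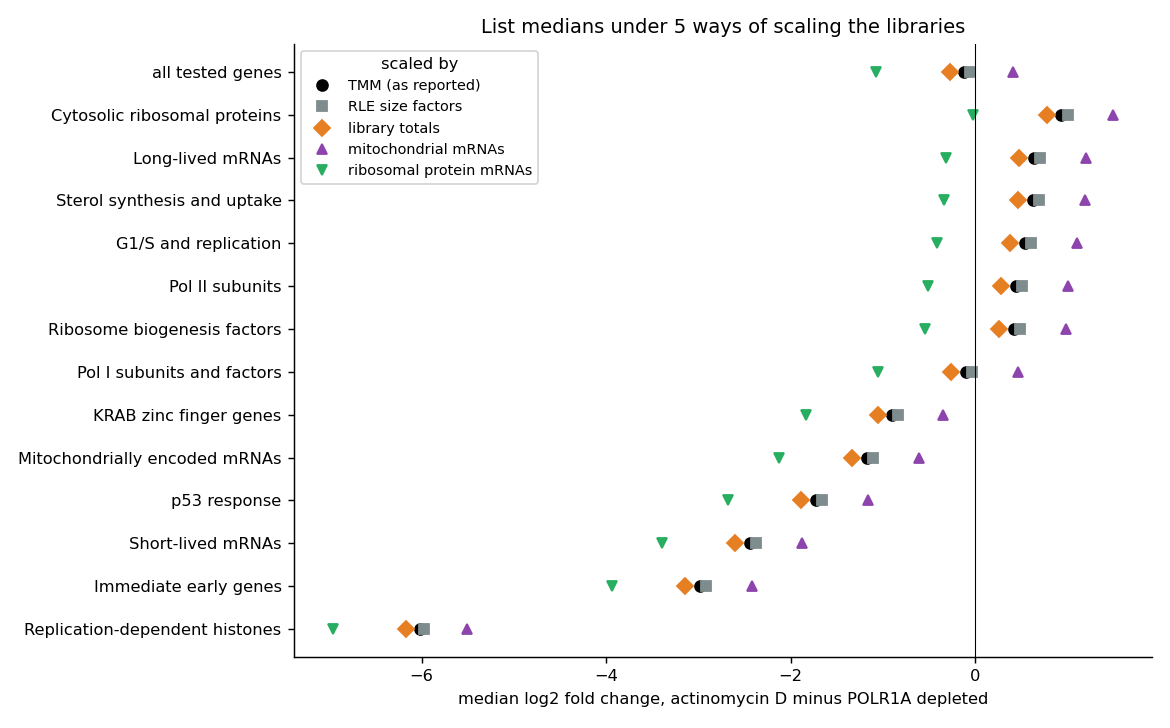
The horizontal axis is the median log2 fold change, actinomycin D minus POLR1A depleted, of all tested genes and of 13 gene lists (rows), and each symbol is 1 way of scaling the libraries. Replication-dependent histones lie at -6.96 to -5.51 under every scaling drawn, whereas ribosomal protein genes move from 1.503 to -0.02.

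Replication-dependent histone genes gave the deepest fall. These genes, clustered mostly on chromosome 6, encode the core and linker histones that package newly replicated DNA, and their mRNAs end in a short stem-loop instead of a poly(A) tail. Of 55 listed genes, 44 passed the filter on low counts, 43 were lower with actinomycin D and none was higher. The median log2 fold change was -6.02, or -6.04 with the 2 genes that had no counts in 1 group placed at their bound or left out, beside -0.12 over all genes. Of the 294 genes lower by 16-fold or more, 39 were on this list. The sequences printed here are from the 3′ ends of the most strongly lowered member in each core histone family whose GENCODE 29 transcript holds the stem-loop, with the 16 matching bases in capitals. The letters searched were GG, any 2 bases, CTTTT, any base, AG, any 2 bases and CC.
H2AC11: aaccaacGGCTCTTTTCAGGGCCacccacg
H2BC7: tcccaaaGGCTCTTTTAAGAGCCacccact
H3C10: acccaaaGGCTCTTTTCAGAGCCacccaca
H4C2: ttccaatGGCCCTTTTCAGGGCCgcccact

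H2AC11, an H2A gene, was at 1.94, 1.15 and 1.36 CPM with actinomycin D and at 196, 205 and 218 CPM with POLR1A depleted, a log2 fold change of -7.14 (SE 0.11, edgeR adjusted p = 2.6e-20). H2BC7, an H2B gene, was at 0.377, 0.995 and 0.329 CPM against 81.0, 81.4 and 81.5 CPM, a log2 fold change of -7.07. H3C10 stood at 2.32, 1.43 and 1.55 CPM against 153, 179 and 187 CPM, a log2 fold change of -6.64, and H4C2 at 1.08, 0.518 and 1.22 CPM against 125, 139 and 129 CPM, a log2 fold change of -7.16. In each of these 4 genes every actinomycin D library was below every POLR1A-depleted library. The controls lay with the POLR1A-depleted group: H2AC11 was at 226 to 274 CPM there and H3C10 at 161 to 173 CPM. The largest called fall on the list was H3C4, at 0.0539, 0.279 and 0.188 CPM against 64.7, 101 and 91.9 CPM (log2 fold change -8.81, SE 0.51, edgeR adjusted p = 4.2e-07). H2AC7, an H2A gene outside the list, had 0 counts in the 3 actinomycin D libraries together and 7005 in the POLR1A-depleted libraries, at least 2393-fold lower against a floor of 3 counts over the group.

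Summed over the list, histone mRNA was at 127 CPM ± 11.9 (SD, n = 3) with actinomycin D and 5406 CPM ± 367 (SD, n = 3) with POLR1A depleted, and the controls held 5619 to 7059 CPM. The exact two-sided permutation test gave p = 0.10, the smallest value 3 libraries against 3 can reach. H4C3 kept the most message of the called members, at 39.9, 32.0 and 44.2 CPM against 101, 110 and 115 CPM (log2 fold change -1.49). H1-3, a linker histone gene with next to no counts in either group, was the tested member not called. Many of these genes are near-identical, and reads shared between copies were divided by estimation, so the value of a single copy is less certain than the sum.

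Of the 41 matched histone genes 40 were lower, so the stem-loop could not be tested as a mark of members that fell. GENCODE 29 transcripts of 19 of the 41 matched histone genes hold the 16-base pattern, searched on the transcript strand, and all 19 were lower with a median of -5.53. The other 22 histone genes have no match in their annotated transcripts and 21 of them were lower, with a median of -6.06. A missing match in an annotated transcript does not show that the mRNA lacks the stem-loop. The pattern is in the transcripts of 0.262% of the 22114 tested genes with a transcript. Outside the list, 39 tested genes hold it, of which 15 were lower and 9 higher with a median of -0.24. Among these are protein-coding histone genes that the list lacks and that were lower: H3C15 (-6.50), H4C16 (-5.40), H2BC26 (-3.31), H2BC6 (-2.67) and H2AC25 (-1.08). H2AX, a histone variant gene of which a form carries the stem-loop, had a log2 fold change of -0.23 that was not called.

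Promoters of the histone genes share letters as well. In RefSeq windows on GRCh38.p14, from 250 bases before to 50 bases after the annotated start, 29 of 40 listed histone genes with a window (72.5%) hold TATAAA on either strand, the letters bound by the general factor TBP, against 6.92% of 13232 windows of tested genes. CCAAT on either strand is in 32 of the 40 (80.0%) against 36.2% of tested windows. It is not particular to histone genes: mitotic genes hold CCAAT in 18 of 20 windows (90.0%) and genes of S phase entry and replication in 15 of 21 (71.4%). Pol II subunit genes hold CCAAT in 0 of 9. Immediate early genes hold TATAAA in 7 of 22 windows (31.8%) and short-lived mRNAs in 7 of 24 (29.2%), while Pol I factors hold it in 0 of 14. The pair printed here had the largest called falls among listed histone genes whose window holds TATAAA as printed and CCAAT on either strand. They are transcribed away from each other, and the windows overlap. Capitals mark TATAAA on the printed strand and CCAAT on either strand (ATTGG when it lies on the other strand); H2BC11 is on the minus strand at chr6:27132746-27133045 and H2AC11 on the plus strand at chr6:27132793-27133092.
H2BC11: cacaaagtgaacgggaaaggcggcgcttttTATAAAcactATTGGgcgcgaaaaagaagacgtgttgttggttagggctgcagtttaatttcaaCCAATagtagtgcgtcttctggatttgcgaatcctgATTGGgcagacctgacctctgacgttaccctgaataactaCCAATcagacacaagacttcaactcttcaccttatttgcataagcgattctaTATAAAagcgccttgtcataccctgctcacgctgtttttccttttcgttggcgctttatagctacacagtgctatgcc
H2AC11: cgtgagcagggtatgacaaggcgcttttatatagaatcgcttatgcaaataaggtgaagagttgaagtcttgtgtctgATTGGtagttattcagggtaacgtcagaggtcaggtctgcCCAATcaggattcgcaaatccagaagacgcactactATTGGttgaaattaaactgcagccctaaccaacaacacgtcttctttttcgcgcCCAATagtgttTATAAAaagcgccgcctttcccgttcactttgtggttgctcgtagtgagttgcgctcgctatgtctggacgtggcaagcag

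H2BC11 was at 0.323, 0.358 and 0.705 CPM with actinomycin D and at 95.5, 103 and 114 CPM with POLR1A depleted (log2 fold change -7.80, SE 0.16, edgeR adjusted p = 4.4e-17), beside the values of H2AC11 above. Neither gene's 2 sets of libraries overlapped, and both controls sat near the POLR1A-depleted libraries, H2BC11 at 76.3 to 92.3 CPM.

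**Figure D2:**
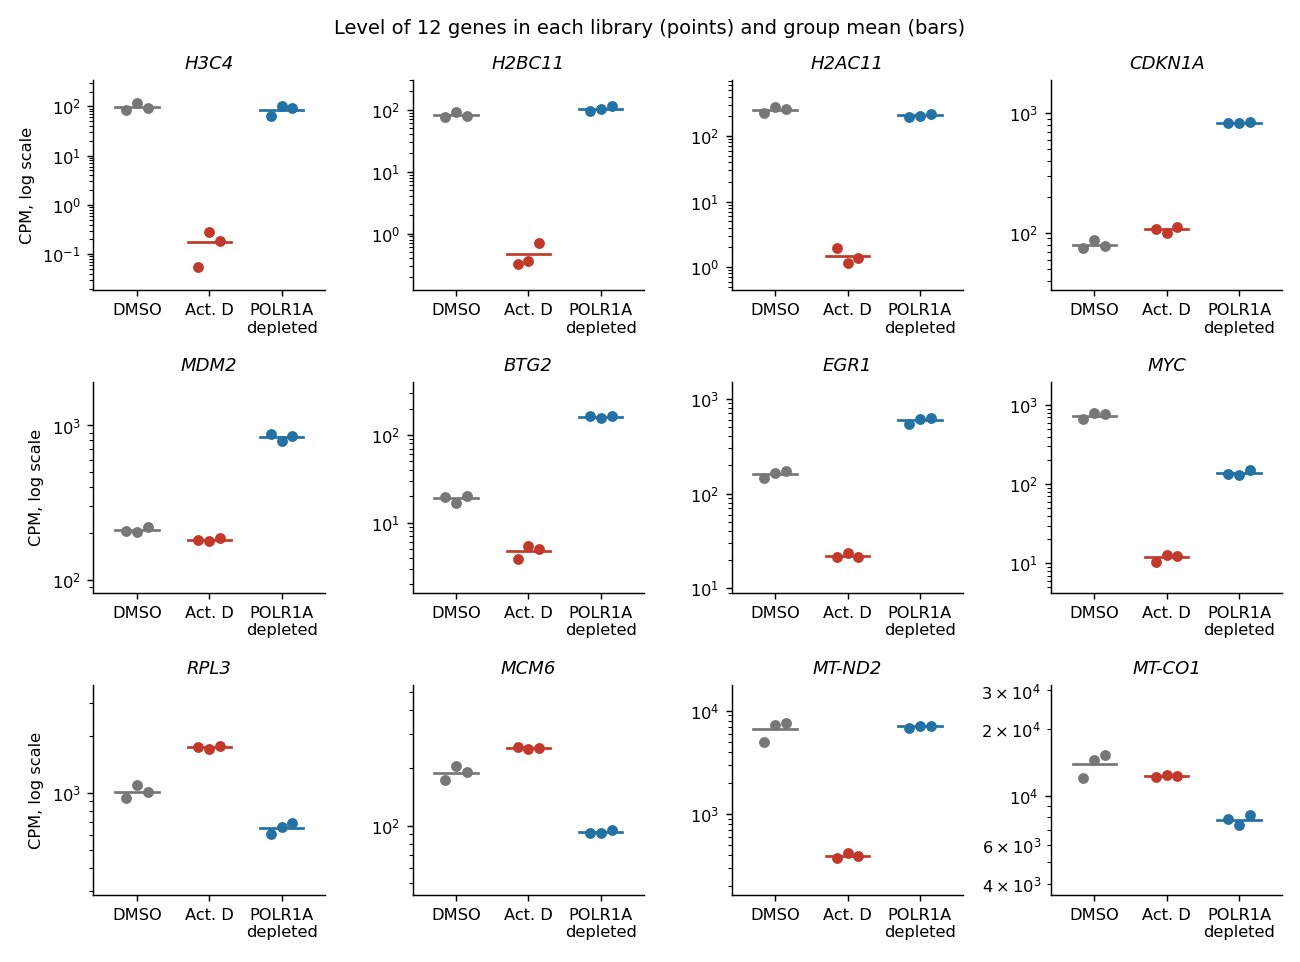
Each panel is 1 gene, the vertical axis is CPM on a log scale, points are libraries and bars are means of the 3 DMSO, 3 actinomycin D and 3 POLR1A-depleted libraries. The 3 histone genes, MYC, EGR1 and MT-ND2 are lowest with actinomycin D, CDKN1A, MDM2, BTG2 and EGR1 are highest with POLR1A depleted, and RPL3 and MCM6 are lowest with POLR1A depleted.

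Targets of p53 were higher after POLR1A loss than with actinomycin D. All 36 listed genes were tested, 34 were lower with actinomycin D than with POLR1A depleted and 0 were higher, against 31.8% lower and 24.4% higher over all genes. The median was -1.72, with the actinomycin D group at -0.07 and the POLR1A-depleted group at 1.38 relative to the controls. CDKN1A, which encodes the cell-cycle inhibitor p21, was at 109, 100 and 113 CPM with actinomycin D, 833, 829 and 843 CPM with POLR1A depleted and 74.7 to 86.6 CPM in the controls (log2 fold change -2.96, SE 0.06, edgeR adjusted p = 5.4e-20). MDM2, the feedback ligase that degrades p53, was at 182, 178 and 185 CPM against 880, 793 and 850 CPM, with controls at 204 to 219 CPM. The actinomycin D libraries held these 2 mRNAs close to their control level, and the POLR1A-depleted libraries stood well above both.

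The arrest genes had the lowest median of the branches, -2.32, with 8 of 9 lower. BTG2, an antiproliferative cofactor of mRNA deadenylation, was at 3.83, 5.41 and 5.03 CPM against 164, 154 and 165 CPM, and the controls at 16.7 to 20.3 CPM lay between the groups. PLK2, a stress-induced kinase, differed from it: its POLR1A-depleted libraries at 132, 141 and 144 CPM were at the control level of 120 to 136 CPM, and its actinomycin D libraries were at 8.25, 6.85 and 9.02 CPM.

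All 10 genes of apoptosis and death receptors were lower, with a median of -1.66. BBC3, which encodes the BH3-only protein PUMA, was at 0.916, 1.04 and 1.504 CPM against 16.5, 19.8 and 20.0 CPM. The death receptor FAS was at 12.1, 14.01 and 14.5 CPM against 99.4, 102 and 97.4 CPM, and BAX, the pore-forming effector, at 46.6, 50.6 and 52.1 CPM against 76.8, 81.2 and 82.4 CPM. The fold thus ran from a log2 fold change of -4.02 for BBC3 to -0.69 for BAX within 1 branch. The 5 feedback genes were all lower (median -1.53), and repair and metabolism genes were lower in 11 of 12 (median -0.94). SESN2, a stress sensor that restrains mTORC1 and is listed with the metabolism genes, had the largest difference on the whole list, at 1.19, 1.79 and 1.36 CPM against 54.7, 59.4 and 61.6 CPM (log2 fold change -5.31), with controls at 8.67 to 10.97 CPM.

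Some p53 targets were above the controls in both groups. GDF15, a secreted stress factor, was at 57.1, 60.03 and 67.8 CPM with actinomycin D and 179, 196 and 201 CPM with POLR1A depleted, while the controls were at 29.3 to 32.8 CPM. RRM2B, a p53-regulated subunit of ribonucleotide reductase, was at 104 to 111 CPM and 196 to 211 CPM against 50.8 to 58.0 CPM in the controls. CCNG1, encoding cyclin G1, was at 179, 172 and 178 CPM against 186, 171 and 176 CPM, with controls at 77.8 to 81.5 CPM, and its direct difference of -0.01 (SE 0.05) had an adjusted p of 0.82 in edgeR's test. The other member not called was SPATA18, near 0 CPM in every library. In all, 14 list members were called above and 16 below the controls with actinomycin D, and 34 above and 0 below with POLR1A depleted. The list's summed level was 1456 CPM ± 35.5 (SD, n = 3) against 4940 CPM ± 79.3 (SD, n = 3). Setting mitochondrial mRNAs equal left the median at -1.16, with 26 members lower and 1 higher, which was CCNG1.

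**Figure D3:**
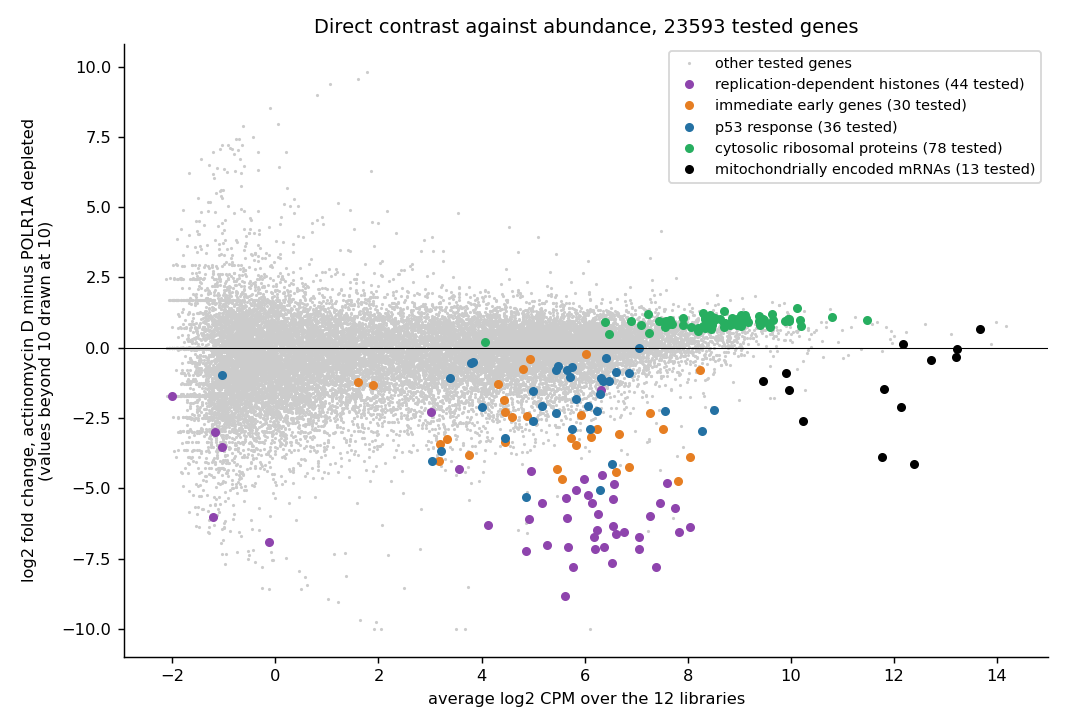
The vertical axis is the log2 fold change, actinomycin D minus POLR1A depleted, and the horizontal axis is the average log2 CPM over all 12 libraries, with 1 point per tested gene. Histone genes lie far below 0, p53 and immediate early genes lie mostly below 0 and ribosomal protein genes lie just above 0, while mitochondrially encoded mRNAs spread from -4.15 to 0.66.

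Immediate early genes, which cells switch on within minutes of a stimulus and whose mRNAs decay fast, were lower in 30 of 30 cases, with a median of -2.98 and no overlap between the libraries of the 2 groups for any of the 30. Relative to the controls 28 were lower with actinomycin D and 1 was higher, and 15 were higher and 6 lower with POLR1A depleted. EGR1, a zinc finger transcription factor, was at 21.2, 23.6 and 21.5 CPM with actinomycin D, 539, 617 and 630 CPM with POLR1A depleted and 145 to 172 CPM in the controls (log2 fold change -4.75, SE 0.11, edgeR adjusted p = 1.3e-13). CCN1, a secreted matricellular protein, was at 3.18, 3.90 and 2.73 CPM against 79.5, 80.3 and 89.8 CPM, and DUSP5, a phosphatase that inactivates nuclear ERK, at 5.82, 8.00 and 8.08 CPM against 164, 159 and 155 CPM. For these 3 genes the actinomycin D libraries lay below the controls and the POLR1A-depleted libraries above them. The AP-1 and ATF members had a median of -2.37 (8 of 8 lower), EGR and NR4A members -1.79 (6 of 6), and the IER and KLF members with other early genes -3.34 (16 of 16). SRF, the factor that drives many of these genes, moved least, with a log2 fold change of -0.22 that turned to 0.34 when mitochondrial mRNAs were set equal, and its call was lost without actinomycin D replicate 3 or POLR1A-depleted replicate 3 (edgeR adjusted p = 0.053 and 0.055).

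A second list of labile mRNAs held 27 tested genes of 28, of which 24 were lower and 2 higher, with a median of -2.44. SERTAD1, a regulator of E2F and CDK4, was at 0.647, 0.995 and 0.658 CPM with actinomycin D and 67.5, 71.3 and 72.3 CPM with POLR1A depleted (log2 fold change -6.48, SE 0.14, edgeR adjusted p = 1.1e-19). ID2, an inhibitor of helix-loop-helix factors, had a log2 fold change of -3.92 and BHLHE40, a circadian repressor, -3.69. The members that rose were CCND1, encoding cyclin D1, at 895, 952 and 932 CPM against 661, 650 and 650 CPM, and SOX4, a transcription factor, at 75.6, 79.3 and 79.7 CPM against 49.7, 46.9 and 49.0 CPM. Both genes were under their controls in both groups, CCND1 at 1151 to 1319 CPM and SOX4 at 246 to 273 CPM, and both turned negative when ribosomal protein mRNAs were set equal (-0.46 and -0.27).

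Many labile mRNAs carry ATTTA in the 3′ untranslated region, the core of elements bound by decay factors. Of the members of these labile lists considered for printing, those shown hold the most such matches within 30 bases of that region in GENCODE 29, ties going to the deeper fall, with ATTTA in capitals as read on the transcript strand.
IER5: ggtgtcttcctttATTTATTTATTTATTTA
PIM1: gtcaatgttatgtATTTATTTATTTATTTA
CCN1: aaagattttATTTAtggaattaaccATTTA
IER3: ttgctcctaattaatATTTAtatgtATTTA

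IER5 and PIM1 carry the same run of 4 overlapping matches and did not behave alike. IER5, an early response gene that feeds heat shock factor activity, was at 3.61, 4.42 and 3.99 CPM against 80.5, 80.3 and 78.8 CPM (log2 fold change -4.30). PIM1, a serine/threonine kinase, was at 8.41, 9.32 and 9.82 CPM against 8.61, 7.64 and 9.08 CPM, a difference of 0.12 (SE 0.15, edgeR adjusted p = 0.50) between overlapping groups. IER3, an apoptosis regulator with 6 matches in its region, was at 35.9, 36.3 and 45.0 CPM against 547, 582 and 591 CPM. Over all protein-coding genes the relation to ATTTA was shallow: 4962 genes with 0 matches had a median of 0.09, and 2046 genes with 9 or more had -0.16.

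MYC, the growth-promoting transcription factor whose mRNA is very short-lived, was low in both groups and lower with actinomycin D. It was at 10.5, 12.7 and 12.4 CPM with actinomycin D, 135, 132 and 151 CPM with POLR1A depleted and 662 to 783 CPM in the controls. The direct log2 fold change was -3.55 (SE 0.10, edgeR adjusted p = 2.8e-14), and the values against the controls were -5.94 and -2.40. Of 9 tested genes of its network 5 were lower and 1 higher. The antagonist MXD1 was at 2.05, 2.11 and 2.82 CPM against 14.7, 13.7 and 16.96 CPM, and the antagonist MXI1 was the 1 that was higher, at 54.9, 50.3 and 59.3 CPM against 28.8, 26.1 and 30.1 CPM, a direction lost when ribosomal protein mRNAs were set equal (-0.01).

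Inhibitors and targets of NF-kB, the inflammatory transcription factor, were lower in 10 of 17 tested genes and higher in 2, with a median of -0.74 (-0.87 with the member at 0 counts in 1 group placed at its bound or left out). NFKBIA, the inhibitor that holds NF-kB in the cytoplasm and is itself an NF-kB target, was at 1.89, 1.75 and 2.07 CPM against 22.4, 21.4 and 20.6 CPM. NFKBIE (-3.20) and RELB (-2.69) followed, and their groups did not overlap either. Among Pol II pause release and elongation factors 18 of 29 were lower and 10 higher. The genes of P-TEFb, the kinase that releases paused Pol II, and of the 7SK complex that restrains it were lower in 7 of 8 cases (median -1.17), while 21 other elongation factors were split, 11 lower and 10 higher. ELL, an elongation factor, was at 4.91, 6.89 and 5.78 CPM against 42.4, 43.2 and 45.3 CPM, and MEPCE, the 7SK capping enzyme, at 12.6, 14.97 and 13.4 CPM against 57.0, 61.3 and 66.4 CPM. CDK13, a kinase of the Pol II tail, was also lower (-1.78). The median of the 29 changed from -0.49 to 0.07 when mitochondrial mRNAs were set equal.

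Ribosomal protein mRNAs lay on the other side. Of 78 listed cytosolic ribosomal protein genes 77 were higher with actinomycin D and 0 lower, with a median of 0.94 that became -0.02 (10 higher, 18 lower) when these same mRNAs were set equal, as that scaling must give. RPL3 was at 1748, 1704 and 1770 CPM with actinomycin D, 604, 660 and 690 CPM with POLR1A depleted and 933 to 1097 CPM in the controls (log2 fold change 1.42, SE 0.06, edgeR adjusted p = 1.9e-14). RPL10A was at 635, 590 and 662 CPM against 241, 256 and 258 CPM. The controls lay between the 2 groups for both genes. Relative to the controls, 72 members were higher with actinomycin D and 53 were lower with POLR1A depleted. RPL36A, at 15.9, 13.5 and 18.8 CPM against 14.5, 15.3 and 11.8 CPM, was the member not called. Summed, the list took 56914 CPM ± 2803 (SD, n = 3) against 29218 CPM ± 1367 (SD, n = 3), and the exact two-sided permutation test gave p = 0.10, its smallest value.

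Factors that assemble ribosomes were higher in 32 and lower in 11 of 46 genes, with a median of 0.42 that became -0.54 when ribosomal protein mRNAs were set equal. All 46 were below the controls with POLR1A depleted, and 30 were below and 6 above with actinomycin D. The snoRNP proteins and assembly chaperones were higher in 10 of 10 (median 0.79), large subunit factors in 10 of 17 and small subunit factors in 12 of 19. BOP1, a large subunit processing factor, was at 217, 233 and 224 CPM against 71.9, 72.4 and 75.8 CPM, with controls at 167 to 188 CPM. BYSL, a small subunit assembly factor, went the other way at 16.8, 15.8 and 16.8 CPM against 39.3, 41.9 and 40.8 CPM, and so did WDR43, a pre-rRNA transcription and processing factor, at 75.1, 71.3 and 71.6 CPM against 174, 165 and 180 CPM. Promoters of this list hold CACGTG, the letters of the E-box, in 16 of 38 windows (42.1%), against 9.37% of tested windows.

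Genes of Pol I itself were split, 6 higher and 6 lower of 15, with a median of -0.10. TAF1D, a subunit of the selectivity factor SL1, was at 129, 122 and 123 CPM against 258, 249 and 248 CPM (log2 fold change -1.01). The subunit gene POLR1F was lower (-0.91), as was POLR1C, a subunit shared with Pol III (-0.71). UBTF, which opens ribosomal DNA chromatin, was at 151, 154 and 149 CPM against 107, 112 and 108 CPM (log2 fold change 0.47), and POLR1A had a log2 fold change of 0.37. Both of these turned negative when ribosomal protein mRNAs were set equal (-0.49 and -0.59). Host genes of small nucleolar RNAs, whose introns release the guides of rRNA modification, were split as well, with 9 higher and 8 lower of 21. SNHG14 (-2.40), SNHG7 (-1.89) and SNHG12 (-1.32) had the largest differences. Of the 21, 19 were below the controls with POLR1A depleted, and 14 were below and 3 above with actinomycin D.

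Long-lived mRNAs were mostly higher with actinomycin D. The list of metabolic, cytoskeletal and translation genes held 26 higher and 3 lower of 30, with a median of 0.64 that became -0.32 when ribosomal protein mRNAs were set equal. FTL, the ferritin light chain, was at 1658, 1738 and 1727 CPM against 780, 831 and 843 CPM, and GSTP1, a glutathione transferase, at 614, 564 and 595 CPM against 262, 278 and 297 CPM. CALM2 (-0.27) and PKM (-0.25) were among the 3 members called lower, and turned to 0.29 and 0.32 with mitochondrial mRNAs set equal. Pol II subunit genes were higher in 12 of 13, with POLR2A the exception (-0.66), and the list's median of 0.45 became -0.51 when ribosomal protein mRNAs were set equal. POLR2F was at 35.6, 36.9 and 35.2 CPM against 17.8, 19.6 and 16.6 CPM.

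Genes of S phase entry and DNA replication were higher in 20 and lower in 3 of 25, with a median of 0.55 (-0.41 with ribosomal protein mRNAs set equal). Of the 16 genes acting at the replication fork 15 were higher. MCM6, a subunit of the replicative helicase, was at 258, 251 and 253 CPM with actinomycin D, 91.2, 91.4 and 95.2 CPM with POLR1A depleted and 172 to 204 CPM in the controls (log2 fold change 1.46, SE 0.06, edgeR adjusted p = 3.1e-15). MCM7 and MCM4, of the same helicase, had log2 fold changes of 1.22 and 1.21. The repressors E2F7 (-1.09) and E2F8 (-0.72) were among the 3 lower. Histone mRNAs and replication genes, both tied to S phase in cycling cells, stood on opposite sides of this contrast. Different groups departed from the controls in the 2 lists. The histone median was -6.07 with actinomycin D and -0.20 with POLR1A depleted. For S phase entry and replication genes it was 0.06 (10 higher, 10 lower) and -0.70 (2 higher, 22 lower). Mitotic genes were split, 9 higher and 8 lower of 25 with a median of 0.01, beside 24.4% higher and 31.8% lower over all tested genes.

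Sterol synthesis genes were higher in 15 and lower in 3 of 20, with a median of 0.63 (-0.33 with ribosomal protein mRNAs set equal). DHCR7, the last enzyme of cholesterol synthesis, was at 100, 97.9 and 96.3 CPM against 41.9, 39.1 and 43.6 CPM.

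Stress lists moved both ways. In the ATF4 and unfolded protein response list 11 were higher and 12 lower of 24. TRIB3, a pseudokinase, was at 1.78, 1.91 and 1.93 CPM against 30.9, 31.4 and 30.05 CPM, and the transcription factor CEBPB (-3.83) and the mTORC1 inhibitor DDIT4 (-3.64) were lower too. PSAT1, ASNS and PHGDH, enzymes of serine and asparagine synthesis, were higher by log2 fold changes of 1.68, 1.62 and 1.29. Of 17 cytosolic heat shock genes 10 were lower and 6 higher. DNAJB1, an HSP40 chaperone, was at 25.8, 28.9 and 25.9 CPM against 250, 251 and 259 CPM, and DNAJB4 at 20.97, 15.9 and 19.5 CPM against 79.7, 71.2 and 71.5 CPM. The inducible HSPA1A and HSPA1B are near-identical copies and their separate values are uncertain. Interferon-stimulated genes were called in 11 of 20, 6 higher and 5 lower, near the 56.2% called over all tested genes. The largest called difference, in the antiviral sensor OAS2 (-2.40), rests on levels of at most 0.207 CPM in overlapping libraries. Its call was lost with any of 4 libraries left out (edgeR adjusted p = 0.052 to 0.25). These were actinomycin D replicates 2 and 3 and POLR1A-depleted replicates 1 and 3.

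**Figure D4:**
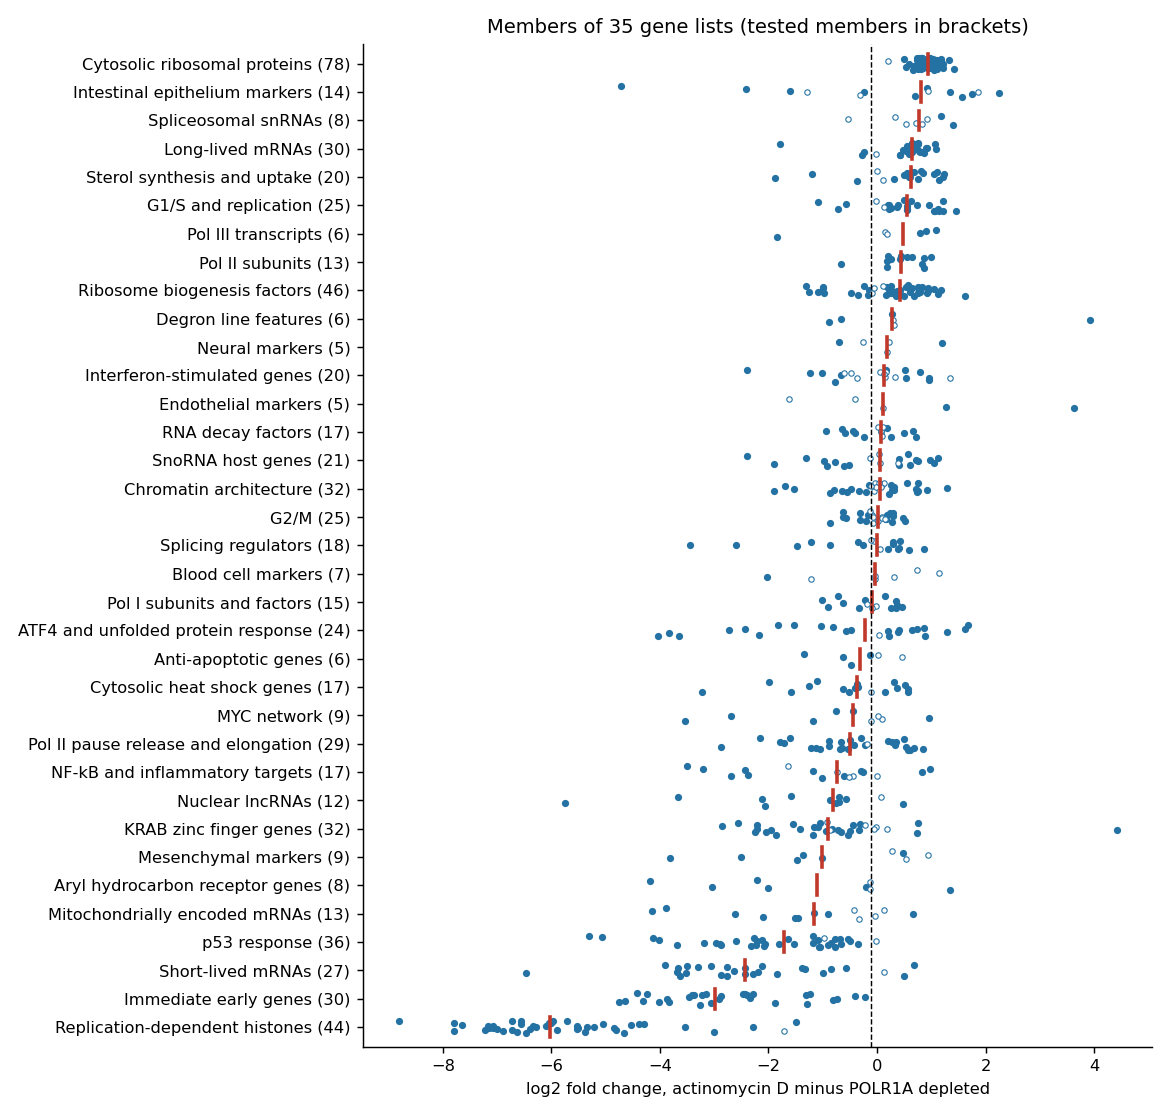
Each row is 1 of 35 gene lists ordered by median, the horizontal axis is the log2 fold change, actinomycin D minus POLR1A depleted, filled points are called members, open points are members not called, red bars are list medians and the dashed line is the median of all tested genes at -0.12. Histone, immediate early, short-lived and p53 genes lie to the left, ribosomal protein genes lie to the right in a narrow band and the stress lists spread across both sides.

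Mitochondrially encoded genes, which a separate polymerase (POLRMT) copies as long RNAs that are cut apart at transfer RNAs, did not move as 1 unit. Of 13 mRNAs 8 were lower with actinomycin D and 1 higher, with a median of -1.17. Relative to the controls all 13 were lower with actinomycin D, and 4 were lower and 0 higher with POLR1A depleted. MT-ND2, a complex I subunit gene at chrM:4470-5511, was at 379, 422 and 388 CPM with actinomycin D, 6771, 7169 and 7136 CPM with POLR1A depleted and 4979 to 7664 CPM in the controls (log2 fold change -4.15, SE 0.18, edgeR adjusted p = 2.6e-08). MT-ND1, beside it at chrM:3307-4262, was at 287, 306 and 287 CPM against 4258, 4283 and 4518 CPM. MT-CO1, the next mRNA along the same strand at chrM:5904-7445, was at 12175, 12386 and 12306 CPM against 7825, 7348 and 8168 CPM, a log2 fold change of 0.66 that became -0.30 when ribosomal protein mRNAs were set equal. Its controls were at 12070 to 15363 CPM. The log2 differences of MT-CO1 from them were -0.19 with actinomycin D and -0.85 with POLR1A depleted, both called lower.

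MT-CO3 was at 7436, 7184 and 7556 CPM against 7337, 7296 and 8069 CPM and was not called (-0.03, SE 0.10), like MT-CO2 (0.13), MT-ATP6 (-0.43) and MT-ND4 (-0.33). MT-ND3 (-2.62), MT-ND5 (-2.10), MT-CYB (-1.46), MT-ATP8 (-1.17, not called without actinomycin D replicate 3, edgeR adjusted p = 0.058), MT-ND4L (-0.90) and MT-ND6 (-1.51), the mRNA on the other strand, were lower. The mitochondrial ribosomal RNAs lie ahead of MT-ND1 and were higher with actinomycin D than with POLR1A depleted: MT-RNR2 was at 492, 696 and 586 CPM against 142, 224 and 119 CPM (log2 fold change 1.87) and MT-RNR1 at 252, 411 and 335 CPM against 69.7, 189 and 77.3 CPM (log2 fold change 1.57). Relative to the controls MT-RNR2 was not called with actinomycin D (0.42) and was lower with POLR1A depleted (-1.45). MT-RNR1 was called in neither comparison with the controls (0.64 and -0.94). Ribosomal RNA had been depleted from these libraries, and the share removed was not tested, so the values of both RNAs carry that step. The call of MT-RNR1 was lost without actinomycin D replicate 2 or POLR1A-depleted replicate 1 or 3 (edgeR adjusted p = 0.059, 0.066 and 0.067). MTND2P28, a nuclear copy of MT-ND2 on chromosome 1, was at 10.9, 12.9 and 13.7 CPM against 262, 257 and 255 CPM, and reads of the 2 copies may not be separable. Mitochondrial genes took 3.56% ± 0.07 (SD, n = 3) of counts against 5.79% ± 0.21 (SD, n = 3), and the exact two-sided permutation test gave p = 0.10, its smallest value.

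**Figure D5:**
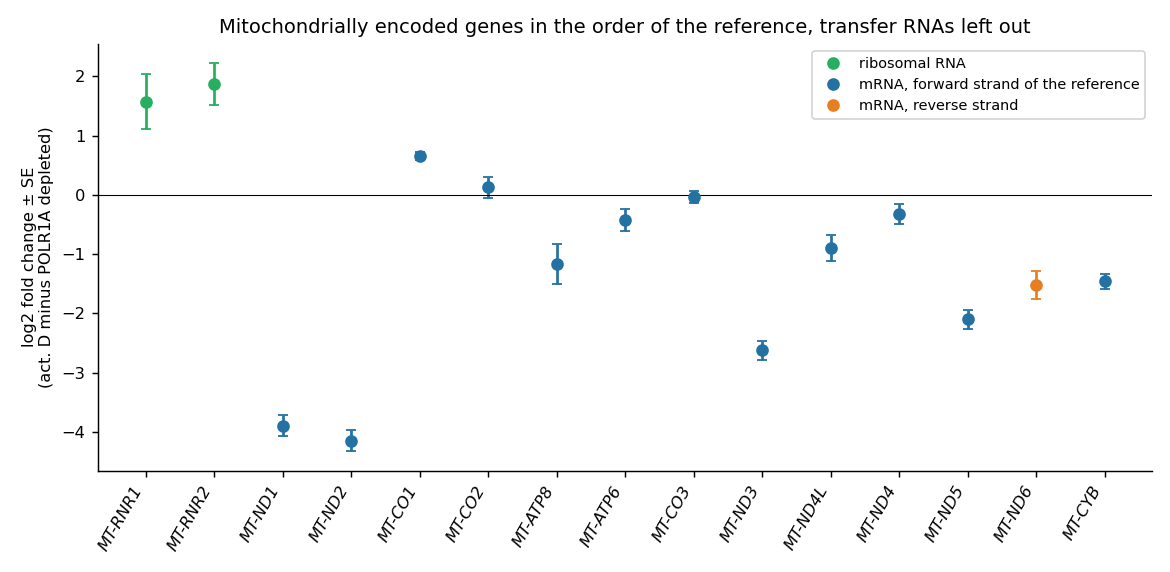
Points are log2 fold changes, actinomycin D minus POLR1A depleted, and bars are standard errors for 15 mitochondrial ribosomal RNAs and mRNAs in the order of the reference sequence. MT-ND1 and MT-ND2 lie near -4, MT-CO1 next to them lies at 0.66, and both ribosomal RNAs lie above 1.

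The protein-coding genes most above POLR1A depletion were low in the POLR1A-depleted libraries and at or above the control level with actinomycin D. GALNT3, which starts mucin-type glycosylation, was at 17.2, 17.5 and 21.3 CPM with actinomycin D, 0.726, 0.313 and 0.968 CPM with POLR1A depleted and 16.1 to 17.4 CPM in the controls (log2 fold change 4.80, SE 0.21, edgeR adjusted p = 1.5e-14). MAL2, a protein of apical transport, was at 331, 299 and 329 CPM against 18.05, 17.5 and 18.1 CPM, with 213 to 221 CPM in the controls. VSNL1 (4.31), SYK (3.93), GFY (3.43), CD24 (3.43), MEF2C (3.40), S100A14 (3.33) and ACSL5 (3.21) completed this set with PPP1R12C. In each of these 10 genes the log2 difference from the controls was larger with POLR1A depleted than with actinomycin D: for GALNT3 it was -4.63 and 0.17, and for ACSL5 -2.69 and 0.52. Whether these levels belong to the line, to doxycycline and IAA or to the loss of POLR1A cannot be told apart.

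PPP1R12C, a myosin phosphatase subunit, holds in an intron the AAVS1 site into which transgenes are often placed in human lines. It was at 46.7, 51.2 and 53.1 CPM with actinomycin D, 3.53, 3.08 and 3.36 CPM with POLR1A depleted and 38.5 to 45.7 CPM in the controls (log2 fold change 3.92). Its 5 listed neighbours on chromosome 19 did not share the size of that difference: EPS8L1 and PTPRH were lower by 1.58-fold and 1.85-fold, and the other members lay within 1.25-fold, with 1 of them called. Where the OsTIR1 gene sits in this line is not given in the sources used here.

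Epithelial genes were split, with 6 higher and 4 lower of 14 tested. CDH1, encoding E-cadherin, was at 114, 119 and 124 CPM with actinomycin D, 27.9, 24.3 and 22.7 CPM with POLR1A depleted and 81.3 to 93.4 CPM in the controls (log2 fold change 2.26), and the tight junction gene CLDN7 (1.74) and EPCAM (1.34) were higher as well, CLDN7 with actinomycin D libraries that overlapped the controls (121 to 137 CPM and 111 to 131 CPM). The intestinal factor CDX2 went the other way, at 1.83, 2.47 and 2.02 CPM against 11.3, 11.8 and 11.2 CPM. Of 9 tested mesenchymal genes 5 were lower and 1 higher. ZEB1, a repressor of CDH1, was at 2.80, 5.14 and 3.15 CPM with actinomycin D, 21.9, 19.9 and 22.4 CPM with POLR1A depleted and 3.59 to 4.50 CPM in the controls. VIM, encoding vimentin, was at 1.64 to 1.91 CPM and 4.47 to 5.50 CPM, with 0.876 to 1.09 CPM in the controls. For CDH1 and VIM the actinomycin D libraries also lay outside the range of the controls, above it in both cases. Markers of blood (1 lower of 7 tested), neurons (1 lower and 1 higher of 5) and endothelium (2 higher of 5) gave few calls.

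Genes of the aryl hydrocarbon receptor, a sensor of planar aromatic and indole compounds, were lower in 5 and higher in 1 of 8. CYP1B1, a xenobiotic oxidase, was at 2.91, 2.51 and 2.96 CPM with actinomycin D, 24.0, 24.5 and 20.6 CPM with POLR1A depleted and 2.92 to 4.44 CPM in the controls, and CYP1A1 at 1.24, 1.79 and 1.64 CPM, 7.83, 6.61 and 7.42 CPM and 0.625 to 0.935 CPM. TIPARP, a target that dampens the receptor, was at 10.4, 13.4 and 11.2 CPM against 225, 202 and 211 CPM, with 101 to 108 CPM in the controls. NQO1, a quinone reductase with a second regulator in NRF2, was higher (1.35). IAA was given to the POLR1A-depleted cells only, and its part in these values was not tested.

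Lists of nuclear and chromatin genes did not share a direction. KRAB zinc finger genes, repressors of transposons, were lower in 23 and higher in 3 of 32 tested, with a median of -0.89, and 30 of the 32 were called below the controls with actinomycin D. ZNF595 had the largest difference on the list and was higher, at 0.809, 1.43 and 1.17 CPM against 0.0519, 0.0447 and 0.0461 CPM, the latter from 3 counts in all, with controls at 5.02 to 5.54 CPM. On the lower side, ZNF274 was at 1.67, 1.91 and 1.79 CPM against 11.8, 13.2 and 14.01 CPM and ZNF263 at 5.71, 6.85 and 5.50 CPM against 33.9, 39.4 and 34.6 CPM. Chromatin architecture genes were called in 24 of 32, 13 higher and 11 lower, and CTCF, which anchors chromatin loops, was at 25.7, 27.5 and 24.3 CPM against 86.0, 80.6 and 85.6 CPM. SUV39H1, a heterochromatin methyltransferase (-1.89), and the cohesin loader MAU2 (-1.53) were lower too. Splicing regulators were split, 8 higher and 7 lower of 18, and the kinases CLK1 (4.80, 6.05 and 5.97 CPM against 66.9, 59.9 and 58.8 CPM) and CLK4 (-2.61) led the lower side. RNA decay factors were split, 5 higher and 6 lower of 17, and of 6 tested anti-apoptotic genes 4 were lower and 0 higher.

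Among nuclear long non-coding RNAs 10 of 12 tested were lower and 1 was higher. MIR22HG, a host gene of a microRNA, was at 0.431, 0.159 and 0.188 CPM against 14.3, 14.6 and 12.1 CPM, and the host genes MIR34AHG, a p53 target, and MIR17HG, a MYC target, had log2 fold changes of -3.67 and -2.12. MALAT1, a very stable nuclear RNA, was the 1 that was higher, at 11087, 11772 and 11194 CPM against 8438, 7975 and 8092 CPM (log2 fold change 0.47, and -0.49 with ribosomal protein mRNAs set equal). TALAM1, which is annotated antisense to MALAT1, had 0 counts with actinomycin D and 1294 with POLR1A depleted, at least 442-fold lower. The strand setting of the counting is not given in the sources used here, so reads of an antisense pair may have been exchanged. Of the RNAs made by Pol III 3 were higher and 1 lower of 6 tested: RMRP was at 3474, 3236 and 3375 CPM against 1566, 1590 and 1603 CPM, and the 7SK RNA itself, RN7SK, was not called (0.15, SE 0.10). Of 8 tested spliceosomal RNAs 2 were higher and 0 lower.

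Gene structure went with the size of the difference. Protein-coding genes of 1 exon were higher in 9.52% and lower in 53.03%, with a median of -1.07, and those of 2 exons had a median of -0.90. Without the listed histones these medians were -0.96 and -0.87. Genes of 9 to 16 exons were higher in 36.8% and lower in 31.4%, with a median of 0.05, and the bands of 3 to 4 and of 5 to 8 exons lay between at -0.20 and 0.00. Gene span made little difference, with medians of -0.02 in the shortest of 5 equal bands and -0.07 in the longest. Transcript length ran from 0.20 in the shortest band to -0.17 in the longest, and the most abundant band of genes had 0.21 against -0.28 in the least abundant. These are descriptions over genes, which are not independent replicates.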

How the data were processed

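Total RNA of 12 HCT116 libraries was sequenced after ribosomal RNA depletion with a stranded kit, per the labels' protocols. The deposited values are estimated counts per gene, of which 76.1% were whole. Tools listed in the submitters' processing notes include RSEM 1.3.3, STAR and, in version 2.0.2, HTSeq, with builds GRCh38 and hg38, and the strand setting is not given in the sources used here. Groups came from the sample titles, and every column was matched to 1 sample by its description.

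Estimated counts were rounded, filtered with filterByExpr (23593 genes kept), scaled by TMM and tested with edgeR 4.0.16 (R 4.3.3, glmQLFit robust, 8 residual degrees of freedom, all 12 libraries, Benjamini-Hochberg over all tested genes, adjusted p under 0.05). Library-level values were tested by exact two-sided permutation. The fit was also tested on simulated data. The 35 gene lists held 778 distinct genes, of which 719 were tested. Members and lists were chosen with earlier results of these data known. The rule took named genes from POLR1A and POLR2A, the 10 highest and 10 lowest protein-coding and 5 and 5 non-coding genes (average log2 CPM of at least 3, called, libraries not overlapping) and up to 3 called members per list with the largest difference, not all of which are described; CDKN1A, MDM2, BBC3, FAS, BAX, GDF15, RRM2B, SRF, IER5, IER3, CCND1, SOX4, PIM1 and other list members outside the rule were chosen after their values were seen. Some genes that the rule names are not reported here. Gene classes, exons and transcripts came from GENCODE 29, promoters from RefSeq on GRCh38.p14. Alternatives were other scalings, no filter, DESeq2 1.42.0, fewer libraries or genes, a replicate block and leaving out each library.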

Additional observations from a re-analysis of the deposited data

How the results depend on the processing

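The counts of 5757 higher and 7502 lower genes depended on the scaling. With mitochondrial mRNAs set equal they were 9256 and 3495, and with ribosomal protein mRNAs set equal 663 and 16050. The other alternatives gave 4489 to 6678 higher and 5582 to 8777 lower, DESeq2 gave 6088 and 6719, and leaving out 1 library gave 5315 to 5519 and 6924 to 7223. Of 136 named genes, 5 turned with mitochondrial mRNAs set equal: CALM2 (0.29), CCNG1 (0.55), MT-CO3 (0.53), PKM (0.32) and SRF (0.34). With ribosomal protein mRNAs set equal 12 turned: ATF4 (-0.093), CCND1 (-0.46), MALAT1 (-0.49), MT-CO1 (-0.30), MT-CO2 (-0.83), MXI1 (-0.0097), PIM1 (-0.84), POLR1A (-0.59), RN7SK (-0.81), RPL36A (-0.76), SOX4 (-0.27) and UBTF (-0.49). Under the other 13 alternatives none of the named genes tested turned. These turns follow from the scaling, which moves every gene of a library by 1 factor.

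A fit with the replicate number as a block gave 5590 higher and 7231 lower genes and changed no call among the 136 named genes. The numbers did not pair the libraries: deviations of same-numbered libraries correlated at -0.0005, 0.039 and 0.033. With 3 dishes a group, no exact permutation test on libraries could fall below p = 0.10. Genes near 0 in 1 group have uncertain folds, and depth there allows only a bound.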

Other observations

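Families outside the lists, grouped by name or class after the values were seen, are given here beside the shares over all tested genes, 31.8% lower and 24.4% higher with actinomycin D than with POLR1A depleted. Of 473 tested zinc finger genes whose symbol begins with ZNF, 326 (68.9%) were lower and 26 higher, with a median log2 fold change of -1.04. Host genes of microRNAs were lower in 21 (56.8%) and higher in 2 of 37, with a median of -1.09. Long non-coding RNAs as a class were lower in 30.8% of 4118, near the share over all genes, and higher in 7.97%. Divergent transcripts, which start beside a coding gene, were lower in 19.5% and higher in 12.9% of 318, below the shares over all genes on both sides. Nuclear genes of respiratory complex I were higher in 70.8% and lower in 8.33% of 48. Mitochondrial ribosomal protein genes were higher in 48.4% and lower in 19.4% of 93. Shares also varied with class and abundance, for which these families were not matched. Protein-coding genes were higher in 32.4% and lower in 34.7%. In the most abundant of 5 equal bands of them the shares were 54.9% and 28.8%, and in the least abundant 10.1% and 19.9%. Proteasome subunit genes were lower in 36.5% of 52, near the share over all genes, and higher in 11.5%.

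Mitochondrial transfer RNAs were lower in 15 and higher in 1 of 17 tested, with a median of -4.56. Whether their counts come from mature transfer RNAs or from the longer RNAs they are cut from was not tested. MT-TI, between MT-ND1 and MT-ND2 at chrM:4263-4331, was at 0.108, 0.0398 and 0 CPM with actinomycin D and 18.8, 20.8 and 18.4 CPM with POLR1A depleted. MT-TL1, ahead of MT-ND1, had 0 counts with actinomycin D and 357 with POLR1A depleted, at least 122-fold lower. The 1 that was higher was MT-TS1 (1.73, from 113 counts against 33), which lies just after MT-CO1 on the opposite strand. Copies of Y RNA and 7SL were higher in 35.7% and lower in 2.86% of 140, and their copies share reads. Ribosomal protein pseudogenes were higher in 28.4% of 275, near the share over all genes, and lower in 16.7%. SCAND3, a transposase-derived gene, had 0 counts against 476, at least 163-fold lower.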
